A study of Mus musculus with 148 samples.

Results

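The genes described here lie on the telomeric side of an inducible Xist transgene on mouse chromosome 3. They were chosen by position, as the listed genes that start between Slc39a8 (first base 135825279 in mm10) and the end of the chromosome, where Wls (first base 159839695) was the last. Genes of 3 symbols were left out by name, as was 1 gene model without an established symbol. This left 70 of the 557 genes with an allelic ratio in either of the 2 chromosome 3 tables of the series. Of these, 69 were listed in the table of WT and Suz12 null cells and 66 in the table of Lbr null cells, with 65 in both. The midpoints of the 70 genes lay 10.04 to 34.08 Mb from the transgene.

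Xist is the long non-coding RNA that coats and silences an X chromosome in female mammalian cells, and it also spreads and silences in cis when it is expressed from an autosome. Suz12 is a core subunit of the Polycomb complex that methylates histone H3 and is recruited to chromosomes covered by Xist RNA. Lbr encodes the lamin B receptor, an inner nuclear membrane protein that has been described as a binding partner of Xist RNA.

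All groups were male mouse embryonic stem cells (mESC) of a 129S X Cast background, derived from the line P4D7F4, in which full-length Xist under a tetracycline-inducible promoter had integrated at random into chromosome 3. The transgene is transcribed from the Cast chromosome. WT cells (iXist-Chr3) and cells of 1 Suz12 null line were each represented by 3 libraries without doxycycline (NoDox) and 3 libraries with doxycycline (Dox), all titled 3 days and grown in differentiation medium, in which LIF is withdrawn. Lbr null cells, in which the Lbr locus had been deleted, were represented by 3 clones, named 4C7A, 4C8E and 4F9F, each with 1 NoDox and 1 Dox library of the same time and medium. The Lbr table also held 1 WT NoDox and 1 WT Dox library, here called the WT pair, whose titles carry the word mRNA while those of the clones do not. The growth protocol gives 24 hours of doxycycline for every sample, whereas titles and time labels of these libraries give 3 days, and the titles were followed. Cells were grown on inactivated mouse fibroblast feeders.

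In total 20 libraries of RNA, from the chromatin fraction by the protocol in the labels, entered the analysis, 12 in the first table and 8 in the second. Each value was an allelic ratio, the fraction of reads of a gene that came from the chromosome carrying the transgene, Xi/(Xi + Xa), where 0 means that no read came from it. Read numbers do not accompany the ratios. The depth behind each value is therefore unknown, apart from the 10 reads over SNPs that a gene needed to be listed. Silencing (z) of a gene was its mean ratio with Dox less its mean ratio without Dox, so that a more negative z is stronger silencing. The limits of the study were used for 3 classes, with z above -0.05 as weak or no silencing, -0.05 to -0.2 as low and below -0.2 as high silencing. The study's methods call the Suz12 and WT replicates biological, the labels do not say that they were separate cultures, and the Lbr replicates are clones, so p-values measure only the spread between these libraries. In RNA from many cells, partial silencing in every cell and full silencing in some cells give the same ratio.

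Neither Suz12 nor Lbr lies on chromosome 3, and their own RNA was not measured in these tables. Of the marker genes on chromosome 3 looked up for mESC, feeder fibroblasts and endothelial cells, only Tet2 (RPKM 43.8) and Cyr61 (RPKM 134), a fibroblast marker also expressed in other cells, had a listed value. The other 8 (Sox2, Fgf2, Postn, Vcam1, S100a4, S100a6, Emcn and S1pr1) were not in the table, and the part of feeder RNA in the ratios was not tested.

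Before induction both chromosomes contributed nearly equally to the RNA of the telomeric genes. The median ratio over the members was 0.468 ± 0.00596 in WT NoDox libraries (SD, n = 3), 0.470 ± 0.00111 in Suz12 null and 0.466 ± 0.00681 in Lbr null NoDox libraries, and 0.464 in the WT pair. Of the 69 genes of the first table, 54 had a mean WT NoDox ratio from 0.4 to 0.6. A few genes were skewed before Xist was induced. The netrin receptor gene Unc5c (0.264, 0.341 and 0.171 in the 3 WT NoDox libraries), the guanylate-binding protein gene Gbp7 (0.197, 0.106 and 0.174) and Clca2 (0.0098, 0.00962 and 0.0135), a regulator of chloride conductance, stood below 0.3 on average. At the other end, the sialyltransferase gene St6galnac5 (0.763, 0.726 and 0.698) and Lrriq3 (0.781, 0.754 and 0.652) stood above 0.7. Since a ratio cannot fall below 0, Clca2 and Gbp7 had little room to decrease.

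With Dox the RNA from the transgene chromosome fell for nearly all of the telomeric genes in WT cells. The median ratio in the 3 WT Dox libraries was 0.258 ± 0.0315 (SD). Measured against the mean NoDox ratio, median z of the members was -0.2096, -0.2087 and -0.163 in the 3 Dox libraries, or -0.194 ± 0.0266 (SD, n = 3), and over all 538 genes of the table it was -0.161 ± 0.0179. By limma (adjusted p under 0.05 over all genes of the table), 66 of the 69 members (95.7%) were silenced in WT, against 85.5% of all genes. No member was raised by limma, and none, 0 of 69, had a higher ratio with Dox at an unadjusted p below 0.05. Counts of raised members, here and for the other lines, are given without a share over all genes. The 3 members that did not pass were Clca2, Lpar3 and St6galnac5. High silencing was measured for 30 members (43.5%, against 39.6% of all genes), low silencing for 38, and weak or no silencing for Clca2 alone.

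The most strongly silenced member in WT was Negr1, which encodes a cell adhesion molecule of neurons anchored to the membrane by glycosylphosphatidylinositol. Its NoDox ratios were 0.486, 0.494 and 0.51 and its Dox ratios 0.0238, 0.0192 and 0.0967, so that 9.37% of the NoDox ratio was left (z = -0.450 ± 0.0247, SE from limma, adjusted p = 2.44e-07). All Dox values of Negr1 lay far below all NoDox values. The receptor kinase gene Bmpr1b, which transmits bone morphogenetic protein signals, was at 0.435, 0.425 and 0.436 without Dox and at 0.03, 0.0194 and 0.0513 with Dox, or 7.77% of its NoDox ratio (z = -0.398 ± 0.0181, limma adjusted p = 1.01e-07). The adhesion receptor gene Lphn2 (now Adgrl2) fell from 0.595, 0.604 and 0.549 to 0.155, 0.15 and 0.227 (z = -0.405 ± 0.0321, limma adjusted p = 1.7e-06).

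Ttll7, which encodes a tubulin polyglutamylase, went from 0.595, 0.54 and 0.528 to 0.154, 0.0755 and 0.189 (z = -0.415 ± 0.0446, limma adjusted p = 1.18e-05). Ccbl2 (now Kyat3), a kynurenine aminotransferase gene, went from 0.564, 0.551 and 0.542 to 0.124, 0.118 and 0.234 (z = -0.394 ± 0.0319, limma adjusted p = 1.84e-06). Lrrc7, which encodes the postsynaptic scaffold protein densin, had widely spread ratios of 0.362, 0.439 and 0.667 without Dox and of 0.152, 0.04 and 0 with Dox (z = -0.425 ± 0.0715, limma adjusted p = 0.000272). In each of these 6 genes the NoDox and Dox ratios did not overlap, as in 64 of the 69 members and 87.4% of all genes. The 6 genes were spread from 16.2 to 32.5 Mb from the transgene.

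At the weak end, Zzz3, a subunit gene of a histone acetyltransferase complex, changed little but evenly. Its NoDox ratios were 0.482, 0.487 and 0.477 and its Dox ratios 0.43, 0.429 and 0.428, so that 88.9% of the NoDox ratio remained and the groups did not overlap (z = -0.0533 ± 0.0117, limma adjusted p = 0.00161). Eif4e, the gene of the cap-binding translation factor, went from 0.463, 0.48 and 0.457 to 0.385, 0.394 and 0.418 (z = -0.0673 ± 0.0164, limma adjusted p = 0.00309). The co-chaperone gene Dnajb4 went from 0.448, 0.439 and 0.44 to 0.349, 0.368 and 0.356 (z = -0.0849 ± 0.0159, limma adjusted p = 0.000547). These weak decreases had small errors, since the replicate ratios of the 3 genes were close to each other. The lysophosphatidic acid receptor gene Lpar3 was at 0.539, 0.541 and 0.487 without Dox and at 0.444, 0.408 and 0.529 with Dox, which overlapped (z = -0.0618 ± 0.0774, limma adjusted p = 0.453). St6galnac5 was at 0.662, 0.55 and 0.729 with Dox, which also overlapped its NoDox values (z = -0.0822, limma adjusted p = 0.103). It passed without WT Dox library 3 (adjusted p = 0.0218) and with a replicate block (0.0487). Clca2 was listed at 0 in all 3 Dox libraries (z = -0.011, limma adjusted p = 0.357).

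The genes at both ends of the interval were silenced in WT. Slc39a8, a zinc and manganese transporter gene and the member nearest to the transgene, had z = -0.335 at 10.04 Mb. It was followed by the calcineurin subunit gene Ppp3ca (z = -0.257) and Ddit4l (z = -0.216), an inhibitor of mTOR signalling. Nfkb1, the gene just outside the interval at 9.83 Mb, had a z of -0.290 in WT, -0.256 in Suz12 null and -0.250 in Lbr null cells, against -0.335, -0.332 and -0.379 for Slc39a8. At the far end, Lrrc7 (32.5 Mb), Depdc1a (33.7 Mb, z = -0.286) and the Wnt carrier gene Wls (34.1 Mb, z = -0.278) were all of the high class.

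Grouped by role, genes of RNA processing and translation lost the least RNA from the transgene chromosome in WT. All 6 of the listed genes passed the test, where 85.5% of all genes did, and all 6 were in the low class. Median RPKM was 25.7 for this group, 22.3 for protein handling and 11.6 for signalling. It was 9.8 for transcription and chromatin, 6.63 for adhesion and 4.28 for metabolism and transport. The part of expression in the order of the groups was not tested. The lists were chosen with earlier results of these data known, so the order of the groups is a description only. For the groups by role, median z was taken over the mean z of each gene, not per library as above. This median was -0.117 for the 6 genes, against -0.177 for all members and -0.158 for all genes of the table. Beside Eif4e, these were the methionine aminopeptidase gene Metap1 (z = -0.0969), the ribosome biogenesis gene Rpf1 (-0.118), the tRNA modification gene Tyw3 (-0.117), the splicing factor gene Zranb2 (-0.133) and Znhit6 (-0.178), which acts in assembly of small nucleolar RNPs. The 8 genes of protein handling, trafficking and mitochondria had a median z of -0.155. All 8 passed the test (85.5% of all genes), and 1, the centriole protein gene Odf2l (-0.23), was in the high class (39.6% of all genes). Among the others of this group, the selenoprotein gene Sep15 (now Selenof) had z = -0.11, the deubiquitinase gene Usp33 -0.138, the Rab prenylation gene Rabggtb -0.146, the mitochondrial gene Fam73a (now Miga1) -0.163, Dnajb14 -0.164 and Sh3glb1, an endophilin gene, -0.197.

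The listed adhesion, receptor and secreted protein genes showed the most negative median, -0.278 over 9 genes. All 9 passed the test (85.5% of all genes did) and 6 were of the high class (39.6% of all genes). These 6 were Negr1, Lrrc7, Lphn2, Pdlim5 (-0.279), Wls and the tetraspanin gene Tspan5 (-0.261). Lpar3, a receptor gene that did not pass (z = -0.0618), was in none of the lists by role and is not among the 9. The name of the list is loose, since the 9 include the scaffold protein gene Lrrc7, while the receptor genes Bmpr1b and Ptger3 were listed under signalling. The matricellular gene Cyr61 (now Ccn1; -0.136), Unc5c (-0.133) and Nexn (-0.174), an actin-binding protein gene, were in the low class. Unc5c lost its call (limma adjusted p up to 0.159) without NoDox library 1 or 2 or Dox library 1 or 2, and with a replicate block (0.0641). Nexn lost it (up to 0.103) without NoDox library 1 or 3 or Dox library 1 or 2. Of the 12 signalling genes, all 12 were silenced (85.5% of all genes) and 7 were of the high class (39.6% of all genes), with a median of -0.228. Bmpr1b and Dapp1 (-0.356), an adaptor of B cell signalling, stood lowest, followed by Syde2 (-0.286), Ptger3 (-0.266), a prostaglandin receptor gene, Ppp3ca, Rap1gds1 (-0.239) and Ddit4l. The kinase genes Pkn2 (-0.172) and Prkacb (-0.146), the G protein subunit gene Gng5 (-0.173), Lamtor3 (-0.152) and Bcl10 (-0.128) were of the low class.

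Metabolism and transport genes had a median z of -0.212, with 15 of 16 silenced and 8 of the high class, beside 85.5% and 39.6% of all genes. Those 8 were Ccbl2, Slc39a8, the sialyltransferase gene St6galnac3 (-0.294), the adenylate kinase gene Ak5 (-0.287), the chitobiase gene Ctbs (-0.246), Cth (-0.238), which makes cysteine from cystathionine, Ddah1 (-0.233) and the lipid transfer gene Mttp (-0.227). In the low class were Fpgt (-0.197), Pigk (-0.191), Slc44a5 (-0.177), the quinone reductase gene Cryz (-0.176), the fatty acid oxidation gene Acadm (-0.173), Adh5 (-0.136), Hs2st1 (-0.116) and St6galnac5, which did not pass. Slc44a5 lost its call (limma adjusted p up to 0.124) without NoDox library 1 or 2 or Dox library 1 or 2, and with a replicate block (0.0543). Among 5 genes of transcription and chromatin the median was -0.222, and all 5 passed the test (85.5% of all genes). Depdc1a, the LIM-only gene Lmo4 (-0.251) and the general transcription factor gene Gtf2b (-0.222) were of the high class (39.6% of all genes). The meiotic mismatch repair homologue Msh4 (-0.17) and Zzz3 were of the low class. Gbp7 was the single interferon-inducible GTPase gene with a ratio (z = -0.125, limma adjusted p = 0.00734).

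Direct neighbours could differ widely. Zzz3 (z = -0.0533) and Ak5 (z = -0.287), whose listed ends overlap on opposite strands, stood 26.6 and 26.8 Mb from the transgene, and Nexn, Fam73a, Usp33 and Dnajb4 just before them lay between -0.0849 and -0.174. Bmpr1b (z = -0.398) lies next to Unc5c (z = -0.133). Between Cth (-0.238) and Lrrc7 (-0.425) lie Ankrd13c with a z of -0.0911 and Lrrc40 with -0.103. The allelic reads were counted by strand, according to the study's methods, and no member overlapped another listed gene on its own strand. These neighbours were picked after their values had been seen.

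**Figure D1:**
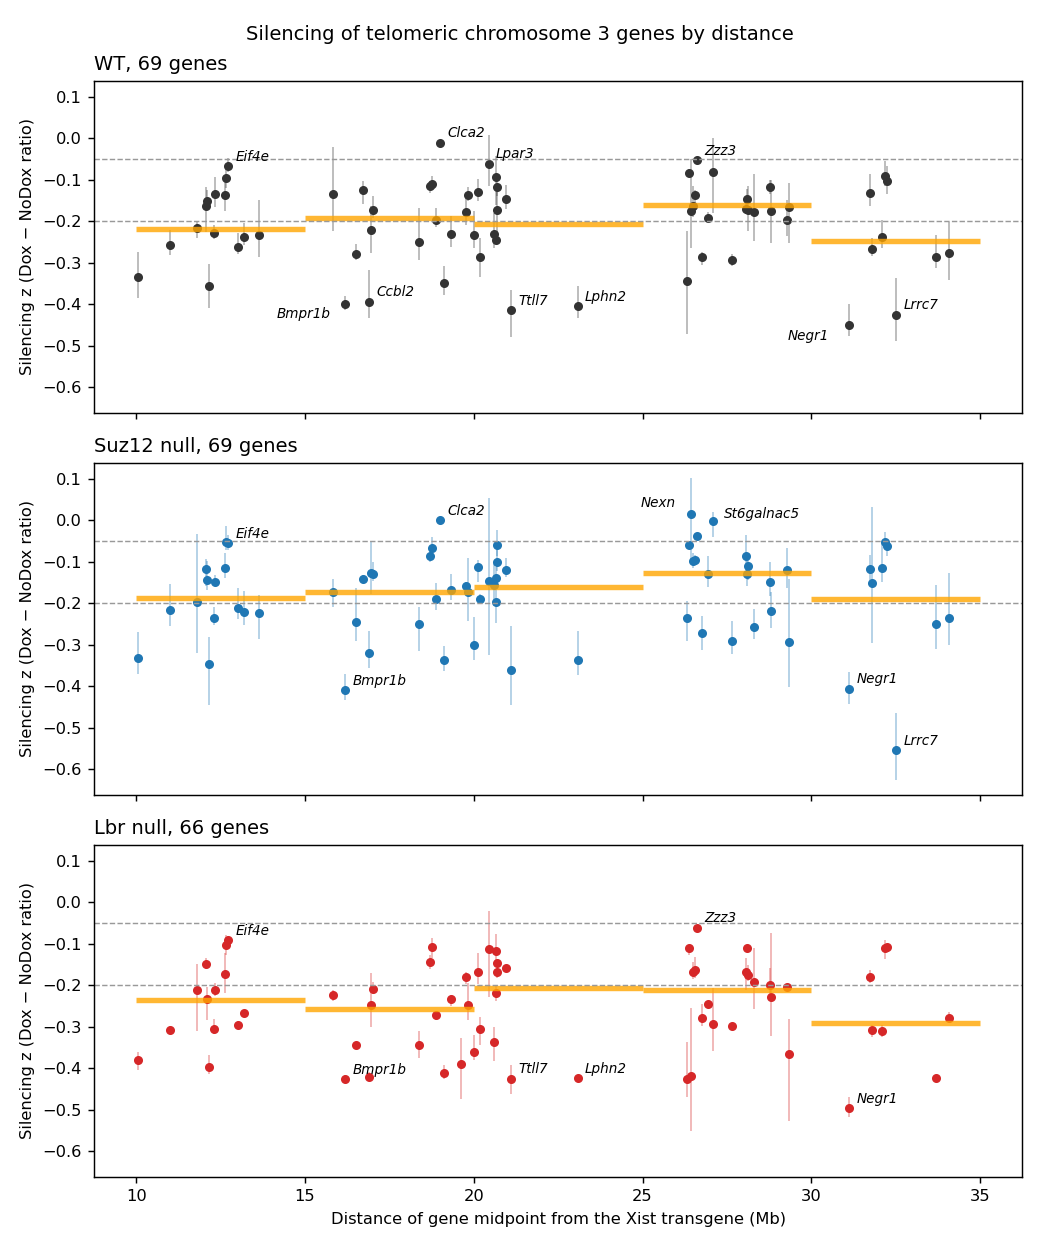
Silencing z (y axis, Dox minus NoDox allelic ratio) of each telomeric gene against the distance of its midpoint from the transgene in Mb (x axis) in WT (69 genes), Suz12 null (69) and Lbr null cells (66). Points are means of 3 Dox libraries, thin bars run from the lowest to the highest library, orange bars are the means of the library medians in 5 Mb steps, which stay between -0.161 and -0.247 in WT, and dashed lines are the class limits of -0.05 and -0.2.

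Silencing of the telomeric genes did not follow distance from the transgene in WT, over a range that began 10.04 Mb away. Spearman's correlation of z with distance across the 69 members was 0.0482, 0.00734 and 0.0243 in the 3 WT Dox libraries, given as a description since genes are not independent replicates. In 5 Mb steps outward, the mean of the WT library medians was -0.218 ± 0.0205 (SD over 3 libraries) for 14 genes, -0.193 ± 0.0357 for 16, -0.206 ± 0.0363 for 12, -0.161 ± 0.0323 for 18 and -0.247 ± 0.0415 for the outermost 9. Each step held fewer than 20 genes. The outermost step, with Negr1, Lrrc7, Depdc1a and Wls, had the lowest median, while the step from 25 to 30 Mb, with Zzz3, Dnajb4 and St6galnac5, had the highest. Members more than 5 Mb beyond the start of the interval gave a mean correlation of -0.0109, of the opposite sign to the mean of 0.0266 over all, which ran from 0.0116 to 0.0421 with a library left out.

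Genes at the same distances on the centromeric side of the transgene, 123 in the table of WT and Suz12 null cells, had medians somewhat more negative in each WT library. Their median z was -0.218, -0.22 and -0.193 in the 3 WT Dox libraries, and the telomeric minus the centromeric median was 0.00827, 0.011 and 0.0295. The mean of 0.0162 ± 0.0115 (SD, n = 3) was 0.00963 without Dox library 3, 0.0245 without NoDox library 2 and 0.00491 with means over genes in place of medians. By steps the centromeric genes had the lower WT median in the first 4, with -0.272 from 10 to 15 Mb, where only 2 genes lie, -0.233 from 15 to 20 Mb, -0.241 from 20 to 25 Mb and -0.220 from 25 to 30 Mb (21 genes). From 30 to 35 Mb the order was the opposite, with -0.247 for 9 telomeric and -0.136 ± 0.0129 for 35 centromeric genes. With only the range of 10 to 30 Mb, the difference was 0.0522 in WT.

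**Figure D2:**
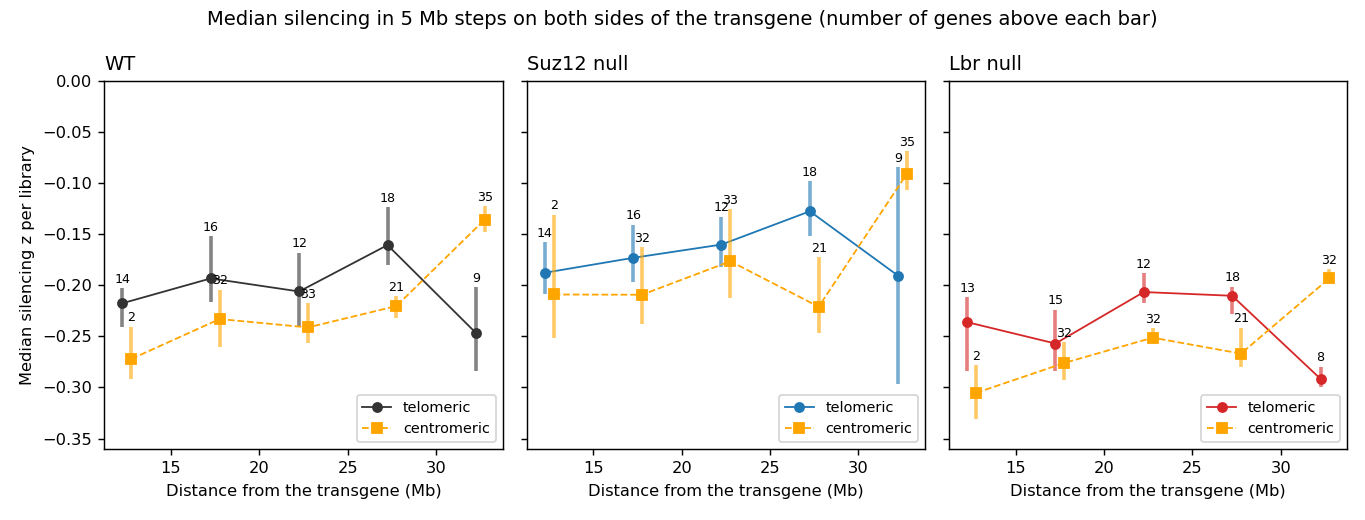
Median silencing z per Dox library (y axis) in 5 Mb steps of distance from the transgene (x axis) for telomeric (circles) and centromeric genes (squares) in WT, Suz12 null and Lbr null cells. Points are means over 3 libraries, bars run from the lowest to the highest library and numbers give the genes in a step, with the sides in opposite order at 25 to 30 Mb (-0.161 and -0.220 in WT) and at 30 to 35 Mb (-0.247 and -0.136).

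The comparison of Suz12 null with WT cells asks how far silencing of these genes depends on the Polycomb complex that Suz12 belongs to. In Suz12 null cells the telomeric genes were still silenced, with medians somewhat nearer to 0. Median z of the members was -0.169, -0.162 and -0.127 in the 3 Dox libraries, or -0.152 ± 0.0224 (SD), which was 78.6% of the WT value and higher by 0.0414. The difference was 0.0261 with means over members, 0.0286 without Suz12 null Dox library 3 and 0.0567 without WT Dox library 3. Over all genes the median was -0.124 ± 0.0235. The least silenced WT library (-0.163) and the most silenced Suz12 null library (-0.169) overlapped, while libraries of the same number differed by 0.0408, 0.0471 and 0.0362. By limma, 64 of the 69 members (92.8%) were silenced in Suz12 null cells, against 73.2% of all genes, and no member was raised by limma, adjusted or not (0 at an unadjusted p below 0.05). The 5 members that did not pass were Lpar3, Nexn, St6galnac5, Ptger3 and Clca2, which is listed at 0 in all 6 Suz12 null libraries, so that its z is fixed at 0 in that line. High silencing was measured for 25 members (36.2%, against 29.7% of all genes), low for 40 and weak or no silencing for 4, namely Clca2, Nexn, St6galnac5 and Zzz3.

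No telomeric gene passed the test of the difference between the lines. With limma's interaction term, 0 members were silenced less in Suz12 null cells (0.372% of all genes passed) and 0 were silenced more (0% of all genes), while 2 and 0 of the 69 members reached an unadjusted p below 0.05, against 12.3% and 0.929% of all genes. A statistic per gene without moderation, on z of the Dox libraries, gave 6 of the 69 members silenced less without adjustment, against 19.7% of all genes, and 1, Zzz3, after it, against 0.558%. This statistic leaves out the spread of the NoDox libraries. For Zzz3 in Suz12 null cells that SD was 0.0102, against 0.00163 for the Dox libraries. In 13 members z was higher in every Suz12 null Dox library than in every WT Dox library, where 29.2% of all genes had this order. For Clca2, among the 13, this order follows from its fixed z of 0. Below every WT library stood 0 members, where 3.35% of all genes did. Across the 69 members, z was higher in Suz12 null cells for 55 (79.7%, against 79.0% of all genes) and lower for 14. The order of the genes was largely kept, with Spearman's correlation of z between the lines at 0.832 across the 69 genes, as a description. Of the 30 genes of high silencing in WT, 22 were so in Suz12 null cells too. Of all genes, 39.6% were of the high class in WT and 29.7% in Suz12 null cells. The share of all genes that was high in both lines was not computed, so the count does not set the members apart.

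The 2 genes with an unadjusted p under 0.05 in the interaction were Cth and Syde2. Cth stood at 0.143, 0.153 and 0.21 in the WT Dox libraries and at 0.269, 0.262 and 0.355 in the Suz12 null Dox libraries, from NoDox values of 0.423, 0.402 and 0.394 and of 0.384, 0.383 and 0.46. Its z was -0.238 in WT and -0.114 in Suz12 null cells, a difference of 0.124 ± 0.0429 (SE; limma adjusted p = 0.294). Syde2 stood at 0.211, 0.159 and 0.253 with Dox in WT and at 0.289, 0.283 and 0.302 in Suz12 null cells, with NoDox ratios between 0.462 and 0.501 in both (difference 0.0977 ± 0.031, limma adjusted p = 0.294). The Dox ratios of the lines did not overlap for either gene, and neither passed after adjustment.

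The other large differences rested on scattered ratios. Nexn had the largest, with Dox ratios of 0.25, 0.192 and 0.406 in WT against 0.339, 0.472 and 0.536 in Suz12 null cells, where its NoDox ratios were 0.425, 0.463 and 0.415 (z of 0.0148 against -0.174, difference 0.189 ± 0.0904, limma adjusted p = 0.368). In Suz12 null cells the Dox and NoDox ratios of Nexn overlapped. Ptger3 had Dox ratios of 0.129, 0.234 and 0.457 in Suz12 null cells and of 0.128, 0.172 and 0.136 in WT, with the highest Suz12 null library far above the other two (difference 0.114, limma adjusted p = 0.555). Gipc2, a PDZ domain protein gene, differed by 0.109 (limma adjusted p = 0.487). In the opposite direction, z in Suz12 null minus z in WT cells was -0.129 for Lrrc7 and -0.128 for Lrriq3 (limma adjusted p = 0.548 and 0.528). For Lrrc7 the Suz12 null ratios were 0.636, 0.679 and 0.654 without and 0.0312, 0.192 and 0.0833 with Dox (z = -0.554), and on the logit scale its difference turned to 0.0542.

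Some members were of another class in Suz12 null than in WT cells. From high in WT to low in Suz12 null cells went 8 genes, among them Cth, Syde2, Ptger3, Gtf2b (-0.222 to -0.126), Odf2l (-0.23 to -0.169), Ctbs (-0.246 to -0.196) and Ddit4l (-0.216 to -0.197). From low to high went 3, namely Lrriq3 (-0.166 to -0.294), Slc44a5 (-0.177 to -0.256) and Cryz (-0.176 to -0.217). From low to weak went Nexn, St6galnac5 and Zzz3. Zzz3, which passed by the unmoderated statistic alone, had Dox ratios of 0.459, 0.462 and 0.461 in Suz12 null and of 0.43, 0.429 and 0.428 in WT cells, a shift in z of 0.0166 ± 0.0166 (SE from limma). Among the most strongly silenced genes in WT, Negr1, Bmpr1b and Lphn2 stayed in the high class in Suz12 null cells. Their z was -0.406 for Negr1 (17.1% of the NoDox ratio left), -0.41 for Bmpr1b (10.8%) and -0.335 for Lphn2 (42%).

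By role, among the listed genes, RNA processing and protein handling had the least and adhesion genes the most negative medians in both lines. The receptor gene Lpar3 (z of -0.0618 in WT and -0.146 in Suz12 null cells) was in none of the lists. The median of mean z in Suz12 null cells was -0.0881 for RNA processing and translation, -0.108 for protein handling, -0.126 for transcription and chromatin, -0.170 for signalling, -0.207 for metabolism and transport and -0.236 for adhesion and receptor genes, beside -0.152 for all members and -0.122 for all genes. The medians of Suz12 null and WT cells were closest for metabolism and transport (-0.207 and -0.212) and farthest apart for transcription and chromatin (-0.126 and -0.222, 5 genes). The latter medians are both those of Gtf2b, so this gap is the difference of 1 gene (0.096). Msh4 differed by 0.0853, Depdc1a by 0.0358, Zzz3 by 0.0166 and Lmo4 by 0.00181. Metabolism and transport genes differed by -0.0792 (Slc44a5) to 0.124 (Cth), so their near medians do not show that each gene was alike in both lines. Differences between the groups were not tested, and the lists were chosen with earlier results of these data known. The correlation of z with distance was 0.104, 0.0525 and 0.137 in the 3 Suz12 null Dox libraries, and the telomeric minus the centromeric median was 0.0192, 0.0304 and 0.0046. Its mean of 0.0181 became 0.00551 without NoDox library 1, 0.0484 over 10 to 30 Mb and -0.00365 with means over genes in place of medians.

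In both lines the replicate numbered 3 had the weakest silencing. Over the members, the ratio in Dox library 1 minus that in Dox library 3 had a median of -0.0455 in WT and of -0.056 in Suz12 null cells. Between the NoDox libraries of these lines the largest median difference was 0.00298. Without that library, median z was -0.209 in WT and -0.165 in Suz12 null cells. The cause of this difference was not tested.

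**Figure D3:**
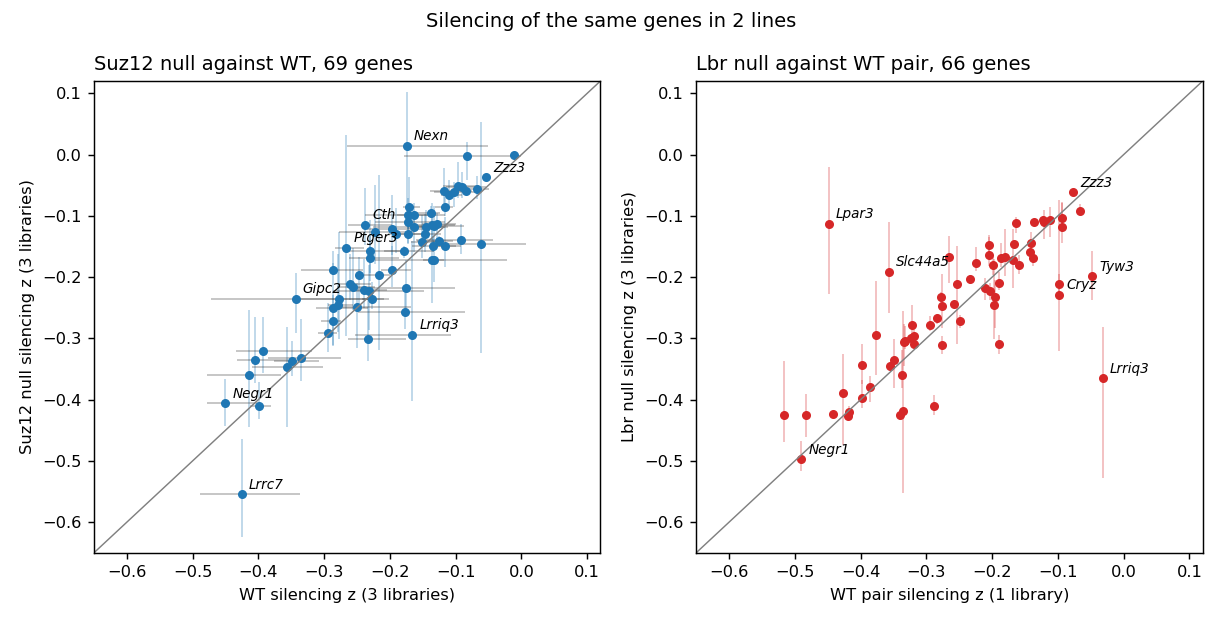
Silencing z of the same telomeric genes in Suz12 null (y axis) against WT cells (x axis; 69 genes, left) and in Lbr null cells (y axis) against the WT pair (x axis; 66 genes, right). Points are means over the libraries named on each axis, bars run from the lowest to the highest library and the diagonal marks equal z. Above the diagonal lie 55 of 69 genes on the left and 39 of 66 on the right. For the right side the share of all genes was not computed, so that count does not set the members apart.

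The Lbr null clones address whether the telomeric genes are silenced without the lamin B receptor. They were, in all 3 clones. Median z of the 66 members was -0.238 in clone 4C7A, -0.226 in 4C8E and -0.254 in 4F9F, or -0.239 ± 0.0141 (SD, n = 3), and over all 517 genes of this table it was -0.195 ± 0.00309. Each Dox library was measured against the mean NoDox ratio of the 3 clones, not against the NoDox library of its own clone. By limma, 65 of the 66 members (98.5%) were silenced, against 92.5% of all genes, and 0 were raised, adjusted or not (0 at an unadjusted p below 0.05). Lpar3 was the 1 member that did not pass, with NoDox ratios of 0.513, 0.333 and 0.316 and Dox ratios of 0.296, 0.16 and 0.367 (limma adjusted p = 0.175). With the clone as a block 64 members were called, and the call of Slc44a5 was lost (adjusted p = 0.0649). High silencing was measured for 41 members (62.1%, against 47.8% of all genes) and low silencing for the other 25.

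Median z of the WT pair of the same table was -0.251, so that the clones stood at 95.2% of it, a difference of 0.0121 beside an SD of 0.0141 between the clones. The difference was 0.00559 without the Dox library of 4C8E, 0.0196 without that of 4F9F, which is above that SD, and 0.00253 with means over members. The pair is 1 library per condition, and the difference has no test. By its titles the pair may be mRNA, so that it may be another kind of library than the clones. In the pair 40 members (60.6%, against 50.1% of all genes) were of the high class, 24 of the low and 2 of the weak class. z was higher in the clones than in the pair for 39 genes and lower for 27. Over all genes of this table, median z was likewise higher in the clones than in the pair. The share of all genes with a higher z was not computed, so these counts do not set the members apart. The WT libraries of the other table had a higher median, -0.194 over the 65 genes of both tables, where the clones had -0.238 and the pair -0.249. The tables were made separately, and these medians are set side by side without a comparison.

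Negr1 was again the most strongly silenced, with NoDox ratios of 0.535, 0.558 and 0.549 and Dox ratios of 0.0417, 0.0794 and 0.0305 in the 3 clones (z = -0.497, limma adjusted p = 4.85e-06), beside -0.490 in the pair. Bmpr1b (z = -0.427), Ttll7 (-0.425), Gipc2 (-0.425), Lphn2 (-0.424), Depdc1a (-0.424) and Ccbl2 (-0.421) followed. Every Dox ratio was below every NoDox ratio for these genes, as for 65 of the 66 members and 92.6% of all genes. Depdc1a stood at 0.136, 0.127 and 0.142 with Dox, from 0.573, 0.55 and 0.556. Zzz3 (z = -0.0615) and Eif4e (z = -0.0914) were the weakest, and of the 65 genes of both tables these 2 alone had a z above -0.1 in WT, Suz12 null and Lbr null cells. High silencing in all 3 lines was measured for 20 of these 65 genes. Line by line, 39.6% of all genes in WT, 29.7% in Suz12 null and 47.8% in Lbr null cells were of this class. The share of all genes that was high in all 3 lines was not computed, so the count does not set the members apart.

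The largest differences between the clones and the WT pair were in genes with scattered ratios. Lrriq3 had 0.464 without and 0.432 with Dox in the pair (z = -0.0319) and 0.66, 0.768 and 0.871 without and 0.48, 0.238 and 0.485 with Dox in the clones (z = -0.365). Tyw3 (z of -0.199 in the clones, -0.0475 in the pair) and Cryz (-0.229 and -0.0984) were next. In the other direction Lpar3 had a z of -0.113 in the clones and -0.448 in the pair, Slc44a5 of -0.191 and -0.357, and Msh4 of -0.167 and -0.266. In the WT libraries of the other table z was -0.166 for Lrriq3, -0.117 for Tyw3, -0.176 for Cryz and -0.0618 for Lpar3. Nexn, which did not pass in Suz12 null cells, had NoDox ratios of 0.558, 0.66 and 0.833 and Dox ratios of 0.429, 0.234 and 0.132 in the clones (z = -0.419, limma adjusted p = 0.00665).

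The same groups of listed genes, again without Lpar3, stood at the ends of the order in the clones. As above, the lists were chosen with earlier results known, and the order is a description. The median of mean z was -0.156 for protein handling, -0.174 for RNA processing and translation, -0.246 for transcription and chromatin, -0.250 for signalling, -0.261 for metabolism and transport and -0.320 for adhesion and receptor genes, beside -0.233 for all members and -0.191 for all genes. In the pair the corresponding medians were -0.196, -0.116, -0.266, -0.225, -0.299 and -0.328. The correlation of z with distance was 0.0649, 0.106 and 0.0299 in the clones and 0.111 in the pair. The clones' mean of 0.0668 was 0.0256 without the NoDox library of 4C8E and 0.128 without that of 4F9F. In the clones the telomeric minus the centromeric median (119 genes) was 0.0253, 0.0288 and -0.0134, with a mean of 0.0136 that became 0.0387 over 10 to 30 Mb, 0.00592 without the Dox library of 4C8E, 0.027 without that of 4F9F and 0.00194 with means over genes. In the WT pair it was -0.0051.

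Among the members, silencing was weaker in genes of high expression and stronger in long genes, features not used to choose them. Expression was taken from the deposited RPKM of the Suz12 table, whose library is not named, and was split into 3 equal groups of 23 genes. From the lowest (RPKM 0 to 3.65) over the middle (3.67 to 14.3) to the highest group (14.3 to 185), median z was -0.259 ± 0.0226, -0.223 ± 0.037 and -0.142 ± 0.0238 in WT (SD over 3 libraries), -0.255, -0.153 and -0.112 in Suz12 null and -0.308 (19 genes), -0.252 and -0.167 in Lbr null cells. The highest group thus had the weakest median in each line. In WT 13, 13 and 4 genes of the groups were of the high class (39.6% of all genes), and in Suz12 null cells 15, 6 and 4 (29.7% of all genes). Negr1 (RPKM 0.346), Bmpr1b (0.749) and Ttll7 (0.829) belonged to the lowest group, and Zzz3 (31.2), Eif4e (25.3), Rpf1 (46.9) and Rabggtb (185) to the highest. Lphn2 (RPKM 34) and Pdlim5 (34.2) were strongly silenced members of the highest group.

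Spearman's correlation of z with RPKM across members was 0.223 to 0.269 in the WT, 0.313 to 0.439 in the Suz12 null and 0.332 to 0.427 in the Lbr null Dox libraries. With the span of the gene from start to end, a measure chosen after the values had been seen, it was -0.325 to -0.413 in WT, -0.367 to -0.426 in Suz12 null and -0.325 to -0.429 in Lbr null cells. Genes that span 3.02 to 29 kb had a median z of -0.148 in WT, those of 29.3 to 72.1 kb -0.191 and those of 74.9 to 755 kb -0.258. Negr1 (755 kb), Lrrc7 (479 kb) and Bmpr1b (332 kb) were among the longest, while the long genes Unc5c (369 kb), Slc44a5 (298 kb) and St6galnac5 (161 kb) were of the low class in WT. RPKM and span were themselves related across the members (Spearman -0.364), and neither followed distance (-0.0496 and 0.0654). Their separate parts in the order of silencing were not tested. The depth per gene is unknown, and its part in this order was not tested.

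**Figure D4:**
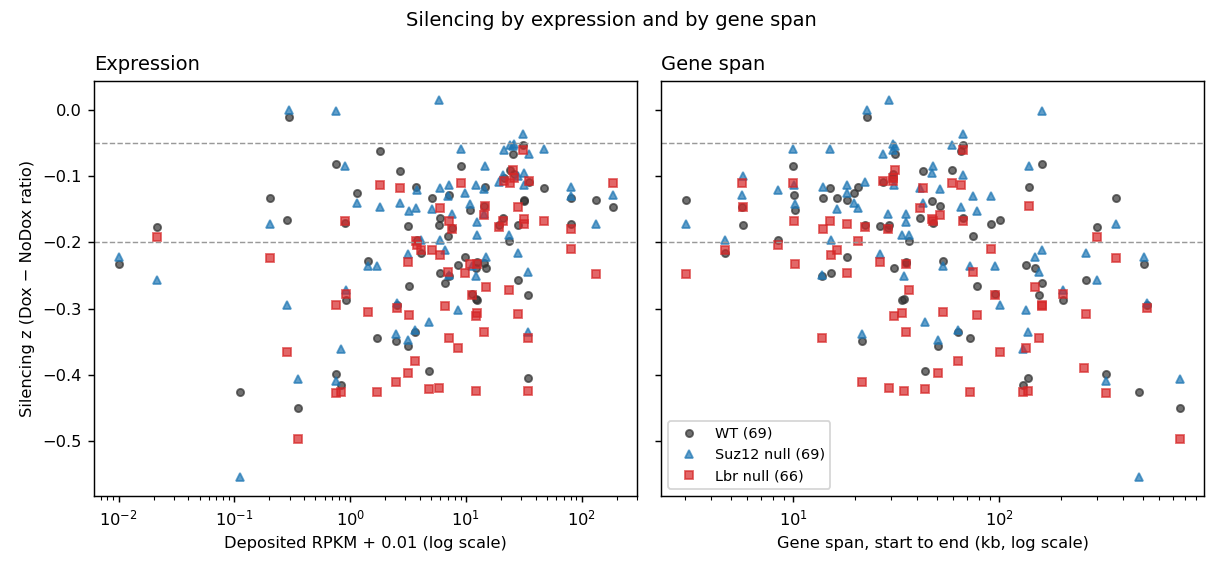
Silencing z (y axis) of each telomeric gene in WT, Suz12 null and Lbr null cells against the deposited RPKM plus 0.01 (left, log scale) and against the span of the gene in kb (right, log scale). Each point is the mean of 3 Dox libraries, dashed lines are the class limits of -0.05 and -0.2, and the 23 genes of highest RPKM have a median of -0.142 in WT against -0.259 for the 23 of lowest RPKM.

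To set sequence beside silencing, the promoters of the 2 members with the lowest and the 2 with the highest mean z over the 3 lines are printed from RefSeq. They were chosen after their values had been seen, among members measured in all 3 lines whose listed start lay within 1 kb of that of the RefSeq promoter. Each is 300 bases long, from 250 bases before to 50 after the start of the gene, on the plus strand of GRCm38.p6 (mm10). Capitals mark CG, a palindrome that reads the same on both strands, which 94.6% of the 32851 RefSeq promoters of this length hold at least once. The median number of CG was 7 over these promoters and 22.5 over the 56 members with an entry. Negr1 (chr3:156561544-156561843, z = -0.450 in WT) holds 29 CG, Ttll7 (chr3:146852117-146852416, z = -0.415) holds 11, Zzz3 (chr3:152395753-152396052, z = -0.0533) holds 42 and Eif4e (chr3:138525941-138526240, z = -0.0673) holds 11.
Negr1: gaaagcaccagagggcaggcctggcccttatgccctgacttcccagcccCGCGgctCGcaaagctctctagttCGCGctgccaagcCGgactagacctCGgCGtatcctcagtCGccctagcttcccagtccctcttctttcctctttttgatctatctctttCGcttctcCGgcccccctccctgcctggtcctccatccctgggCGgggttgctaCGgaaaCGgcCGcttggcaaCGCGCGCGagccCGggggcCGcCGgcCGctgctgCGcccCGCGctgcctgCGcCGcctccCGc
Ttll7: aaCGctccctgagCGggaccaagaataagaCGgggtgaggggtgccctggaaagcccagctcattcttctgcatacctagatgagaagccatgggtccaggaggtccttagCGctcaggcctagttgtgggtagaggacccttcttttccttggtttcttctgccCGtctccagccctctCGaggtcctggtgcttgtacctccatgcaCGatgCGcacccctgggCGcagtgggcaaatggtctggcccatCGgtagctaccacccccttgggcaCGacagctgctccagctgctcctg
Zzz3: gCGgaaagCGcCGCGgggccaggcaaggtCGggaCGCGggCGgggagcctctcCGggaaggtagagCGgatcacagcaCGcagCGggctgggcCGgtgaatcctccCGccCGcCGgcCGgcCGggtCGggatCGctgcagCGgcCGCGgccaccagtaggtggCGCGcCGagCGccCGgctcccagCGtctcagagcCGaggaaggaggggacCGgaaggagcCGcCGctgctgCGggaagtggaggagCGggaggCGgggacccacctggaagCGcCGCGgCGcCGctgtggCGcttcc
Eif4e: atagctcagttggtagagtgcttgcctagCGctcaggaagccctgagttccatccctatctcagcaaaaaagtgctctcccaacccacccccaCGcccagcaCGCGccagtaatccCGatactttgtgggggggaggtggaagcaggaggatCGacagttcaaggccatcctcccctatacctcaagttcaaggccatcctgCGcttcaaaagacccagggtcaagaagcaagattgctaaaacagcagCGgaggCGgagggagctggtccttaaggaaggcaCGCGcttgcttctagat

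The strongly silenced Ttll7 and the weakly silenced Eif4e thus hold the same number of CG, and 41.4% of all promoters hold at least as many, against 12.9% for Negr1 and 3.03% for Zzz3. A match to CG is a description of the sequence, not a site or a cause. No split of the members by promoter CG was made, since 55 of the 69 genes of the WT and Suz12 null table (79.7%) had a promoter entry, where 80% were needed.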

How the data were processed

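RNA of 20 libraries was analysed, of the 148 samples of the series. The other libraries, 2 samples whose labels disagree on doxycycline, and the chromosome X tables were not used here. Reads of rRNA were removed by the authors with Bowtie2 2.3.2. STAR 2.4.2a then placed unique reads end to end on mm10 with SNPs masked, SNPsplit sorted them by allele and featureCounts counted them by strand. The allelic ratio was deposited as a fraction from 0 to 1 for genes with 10 or more reads over SNPs. Expression was deposited by the authors as RPKM, from a library that is not named. The p-value, mean and difference columns of the tables hold the authors' own comparisons and were not used. No read counts accompany the ratios, so depth is unknown, count models could not be run, and precision was taken from the spread between libraries.

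Groups came from the sample titles. Ratios of each table were fitted over all of its genes in R 4.3.3 by limma 3.58.1, with 1 mean per line and condition and moderated variances. Tests covered Dox less NoDox in each line and the interaction of Suz12 null and WT cells, at an adjusted p (Benjamini-Hochberg) below 0.05. This step was tested on simulated ratios. Figures were drawn with Python 3.11.15, numpy 2.4.6, pandas 2.3.3 and matplotlib 3.10.9. Median z was taken per Dox library, after subtracting the mean of the NoDox libraries, but for the groups by role over the mean z of each gene. Positions are in mm10, counting from 1, and distance runs from the gene midpoint to the integration site given in the study's methods. Symbols of all 70 genes matched RefSeq (GRCm38.p6), 56 with a promoter entry.

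The members and lists were chosen with earlier results of these data known. Genes were named by rule, apart from Ankrd13c and Lrrc40, chosen after their values had been seen. The rule took the 6 lowest and 6 highest z in WT, the 6 largest differences between Suz12 null and WT cells where fewer than 6 passed, the first 3 and last 3 genes by position, the 3 largest differences in each direction between Lbr null cells and the WT pair, the members of the lists by role, and genes with a WT NoDox ratio below 0.3 or above 0.7. The Lbr null NoDox and Dox libraries are paired by clone. Correlations of the deviations of a clone's libraries from the group means were -0.113 to 0.0283. Alternatives were a block for clone or replicate number, logit and arcsine scales, a limit of 0.2 to 0.8 on the NoDox ratio, each library left out, Student's statistic on the Dox libraries less the mean NoDox ratio, means in place of medians, and other ranges of distance. A fit on only the groups of a comparison was also made. Values of a few genes of the interval are not reported here.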

Additional observations from a re-analysis of the deposited data

How the results depend on the processing

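Of 199 recomputed values of 16 results, 186 kept their sign and moved by less than the spread between libraries, or for counts by no more than the limit set. Another 11 moved by more, and 2 turned in sign. A kept value may thus still differ, as the Suz12 null side difference of 0.00551 without NoDox library 1 did from 0.0181. Silenced members numbered 61 to 66 in WT, 58 to 65 in Suz12 null and 63 to 65 in Lbr null cells with a library left out. Fitted on only the groups of a comparison, they numbered 64 in WT, 60 in Suz12 null and 65 in Lbr null cells. On the arcsine scale 67 were called in WT. Members silenced less in Suz12 null cells numbered 0 by limma but 1 on the arcsine scale (Clca2, at 0 in all Suz12 null libraries, which leaves the test void), 6 by Student's statistic unadjusted and 1 after adjustment. Median z of Suz12 null cells was -0.178 as a mean over members. The side difference over 10 to 30 Mb was 0.0522 in WT, 0.0484 in Suz12 null and 0.0387 in Lbr null cells, and as a mean over genes -0.00365, of opposite sign, in Suz12 null cells. The correlation with distance beyond 5 Mb from the edge of the interval was -0.0109 in WT, of opposite sign, and 0.112 in Lbr null cells, and with a NoDox ratio of 0.2 to 0.8 it was 0.0486 in WT. In Lbr null cells it ranged from 0.0256 without the NoDox library of 4C8E to 0.128 without that of 4F9F. The cause was not tested.

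With a replicate block, 65 members were silenced in WT, 65 in Suz12 null and 64 in Lbr null cells, and 0 differed between the lines in either direction. Each number or clone occurs once with and once without Dox in a line. The block therefore cannot change z of a gene, and unchanged z is no sign of stability. The median difference of Suz12 null from WT cells was 0.0278 with each Dox library set against the NoDox library of its number in place of the NoDox mean, which also changes the statistic. Among the WT and Suz12 null libraries, 2 of 18 same-number pairs had a correlation of gene deviations over 0.1, so that the numbers were not taken to pair libraries. These correlations do not see a shift common to all genes, such as that of number 3. The block moved the counts of silenced members by 1 each. Of 628 recomputed values for 62 named genes, 1 reversed, Lrrc7 in the difference of Suz12 null from WT cells (0.0542 on the logit scale). Most of these values were WT z. The Suz12 null difference and Lbr null z were recomputed for fewer genes, and Suz12 null z was not among them. Unc5c, Nexn, Slc44a5 and Lrriq3 lost their WT call in 18 settings, St6galnac5 gained it in 2 (replicate block, without WT Dox library 3), and Slc44a5 and Cryz lost the Lbr null call in 4. Without the Dox library of 4C7A or of 4C8E, 63 of 65 members kept the Lbr null call. A member not recomputed by name thus also lost it in each case. Unknown depth limits the genes of low expression.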
